A study of Homo sapiens with 6 samples.

Results

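The genes described here are natural antisense transcripts that were expressed in AF22, together with the genes they are named after. AF22 is an established human cell line with neural stem cell character, made from induced pluripotent stem cells and grown as neuroepithelial-like cells. A gene symbol made of another gene's symbol followed by AS and a number (X-AS1) names a long non-coding RNA that runs on the strand opposite to X, and X is called its sense gene below. Members are the rows named in this way whose sense gene is also listed and whose raw counts sum to 100 or more over all 6 libraries. The rule gave 206 antisense rows of 26485 symbols (0.778%), which is 21.4% of the 961 antisense rows whose sense gene is listed. Of the other antisense rows, 755 had under 100 counts, and 286 of these were at 0 in every library. The 206 rows have 203 sense genes, because EPB41L4A, DLGAP1 and PTOV1 each have 2 antisense rows among the members. The members were thus chosen by their summed counts over all 6 libraries, so their expression level is a description, while the change between groups did not enter the choice.

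The comparison was of 3 knockdown libraries with 3 control libraries. Knockdown cells are AF22 neural stem cells labelled as a knockdown of COMMD3 and of COMMD3-BMI1, the readthrough gene that joins COMMD3 to its neighbour BMI1, and the labels used here do not describe the reagent. Control cells are AF22 cells labelled shControl, with the genotype given as WT. Total RNA was sequenced after a library preparation that keeps the strand of the RNA. Nothing in the labels tells whether replicates came from separate cultures, and p-values therefore cover the spread between these libraries alone, which may be technical. All libraries come from 1 cell line, and in such bulk RNA fewer cells with a transcript and less of it per cell cannot be told apart.

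Antisense transcripts arise in several layouts. Some start beside the sense promoter and run away from it, as divergent transcripts do, some overlap the exons of the sense gene, and some lie in its introns. Well-studied antisense RNAs are known to act on the neighbouring gene through chromatin, through the act of transcription or by pairing with its RNA, while others act elsewhere in the cell or have no known function. In neural progenitors, several lie beside genes of transcription factors, such as SOX21-AS1 beside SOX21.

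The promoter windows of 5 pairs show how close the starts of an antisense transcript and its sense gene can lie. They are 5 of the 7 pairs whose members both changed and whose antisense start lies within 250 bases upstream of the sense start. The windows of HHIP and KMT2E, with starts 137 and 64 bases apart, are not printed. Each window is 300 bases from RefSeq (GRCh38.p14), read 5′ to 3′ on the strand of the sense gene, from 250 bases before the sense start. Capitals mark the bases from the antisense start up to the base before the sense start, so transcription of the antisense RNA begins at the first capital and runs leftwards. The windows are chr17:81927686-81927985 (minus strand) for MAFG, chr13:79406206-79406505 (minus strand) for RBM26, chr10:31320304-31320603 (plus strand) for ZEB1, chr17:70169282-70169581 (plus strand) for KCNJ2 and chr20:44210722-44211021 (minus strand) for OSER1.
MAFG: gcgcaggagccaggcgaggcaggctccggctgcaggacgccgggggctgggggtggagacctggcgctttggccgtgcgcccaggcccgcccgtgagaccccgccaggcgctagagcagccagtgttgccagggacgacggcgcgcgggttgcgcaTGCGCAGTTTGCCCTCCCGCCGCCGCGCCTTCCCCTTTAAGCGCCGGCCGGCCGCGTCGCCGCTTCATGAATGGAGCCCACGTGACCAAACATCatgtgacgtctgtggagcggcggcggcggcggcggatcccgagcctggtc
RBM26: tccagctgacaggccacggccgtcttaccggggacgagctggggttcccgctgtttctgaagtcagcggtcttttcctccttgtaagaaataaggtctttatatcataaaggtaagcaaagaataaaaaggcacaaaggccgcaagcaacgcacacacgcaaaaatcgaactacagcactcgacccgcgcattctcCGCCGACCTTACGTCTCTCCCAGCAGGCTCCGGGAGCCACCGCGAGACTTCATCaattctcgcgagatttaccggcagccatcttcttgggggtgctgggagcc
ZEB1: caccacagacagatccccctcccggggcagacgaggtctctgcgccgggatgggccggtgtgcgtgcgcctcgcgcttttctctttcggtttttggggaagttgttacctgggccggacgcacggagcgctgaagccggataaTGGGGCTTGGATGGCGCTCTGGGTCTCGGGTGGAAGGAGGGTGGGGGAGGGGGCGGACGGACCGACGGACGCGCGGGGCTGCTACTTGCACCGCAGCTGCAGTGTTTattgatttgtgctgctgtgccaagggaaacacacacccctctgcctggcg
KCNJ2: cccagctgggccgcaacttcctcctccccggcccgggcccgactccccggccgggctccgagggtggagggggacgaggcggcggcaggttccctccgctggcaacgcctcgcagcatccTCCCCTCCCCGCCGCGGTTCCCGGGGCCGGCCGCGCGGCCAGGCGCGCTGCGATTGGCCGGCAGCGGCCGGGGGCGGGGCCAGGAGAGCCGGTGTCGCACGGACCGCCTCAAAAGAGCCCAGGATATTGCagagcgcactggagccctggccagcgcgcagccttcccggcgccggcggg
OSER1: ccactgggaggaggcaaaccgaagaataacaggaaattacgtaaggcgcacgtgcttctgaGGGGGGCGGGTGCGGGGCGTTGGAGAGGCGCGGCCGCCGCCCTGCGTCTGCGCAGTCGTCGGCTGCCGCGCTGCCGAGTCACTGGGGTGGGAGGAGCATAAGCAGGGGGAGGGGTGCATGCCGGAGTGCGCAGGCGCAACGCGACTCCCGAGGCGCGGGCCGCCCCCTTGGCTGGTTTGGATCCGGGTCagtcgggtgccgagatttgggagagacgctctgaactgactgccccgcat

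The starts lay 94 bases apart for MAFG, 54 for RBM26, 107 for ZEB1, 130 for KCNJ2 and 189 for OSER1. ZEB1 has 7 starts listed in the promoter table, ZEB1-AS1 has 2 and OSER1-AS1 has 3. In every pair, the listed starts nearest to each other were used, here and in the count of pairs below. The windows held 73.3% G and C for MAFG, 54.7% for RBM26, 65.0% for ZEB1, 78.0% for KCNJ2 and 68.0% for OSER1, with 39, 22, 26, 39 and 32 CpG steps in that order. Starts of both members of a pair were listed for 152 of the 206 pairs, and in 58 of them the antisense start lay 1 to 250 bases upstream of the sense start. The GC-box letters GGGCGG, searched on both strands, occurred in 4 of the 5 windows, all but that of RBM26. They occurred in 70.9% of 110 sense-gene windows with a single listed start and in 45.0% of all 35116 windows in the table. The letters GCGCATGC, searched on both strands, had 2 overlapping matches in the MAFG window. They occurred in 7.27% of the sense-gene windows and in 3.05% of all windows. TATAAA, searched on both strands, had 1 match in the RBM26 window, as its reverse complement TTTATA. It occurred in 6.36% of the sense-gene windows and in 11.5% of all windows. GAAANNGAA, a core of the elements that interferon-activated factors bind, was also searched on both strands. It had 1 match in the ZEB1 window, as its reverse complement TTCNNTTTC, against 8.18% of the sense-gene windows and 8.11% of all windows. These matches are letters in a sequence and were not tested as sites.

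Each library held between 7294687 and 11579849 counts, and the members' antisense rows took between 0.257% and 0.278% of them. COMMD3, the targeted gene, had 12.9, 11.3 and 10.5 CPM (counts scaled to a common library size by TMM) in knockdown libraries and 31.7, 29.7 and 27.6 CPM in control libraries, which is lower in knockdown with an edgeR adjusted p of 2.34e-12 (log2 fold change −1.37, SE 0.0996). BMI1 did not pass the test, and COMMD3-BMI1 was listed at 0 in all 6 libraries. All 10 markers of neural stem cells had 10 CPM or more. The astrocyte marker GFAP, the oligodendrocyte marker SOX10 and the T cell marker CD3E were at 0. The summed level of 6 neuron markers was 10.2 to 12.8 CPM in knockdown libraries and 15 to 15.6 CPM in control libraries. That of 4 pluripotency markers was 635 to 693 CPM in knockdown libraries and 531 to 536 CPM in control libraries, and that of 3 endothelial markers was 17.4 to 19.0 CPM in knockdown libraries and 26.5 to 32.6 CPM in control libraries. The 4 oligodendrocyte markers summed to 141 to 146 CPM in knockdown libraries and 161 to 168 CPM in control libraries. The ranges overlapped for 4 fibroblast markers (120 to 140 CPM in knockdown and 139 to 156 CPM in control) and for 4 astrocyte markers (5.14 to 6.60 CPM in knockdown and 5.83 to 7.17 CPM in control). The part of these differences in the results below was not tested.

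Members differed widely in level. The antisense rows had between 100 and 13797 counts over the 6 libraries, with a median of 301.5, while the sense genes had a median of 3226. Per kilobase of annotated exon (GENCODE v29), the median level was 2.02 CPM per kb for antisense rows and 9.68 CPM per kb for sense genes. The antisense row stood at a median of 20.4% of its sense gene on this scale, and it was above its sense gene in 45 pairs. LRRC75A-AS1 had the highest level per length, at 66.2 CPM per kb, with 254, 249 and 235 CPM in knockdown libraries and 259, 251 and 247 CPM in control libraries. It is a host gene of small nucleolar RNAs, and RefSeq now names it SNHG29. FGD5-AS1 followed at 43.0 CPM per kb, with 213, 215 and 210 CPM in knockdown libraries and 224, 230 and 233 CPM in control libraries. The groups of FGD5-AS1 did not overlap, but its log2 fold change of −0.10 did not pass the test (edgeR adjusted p = 0.0553, SE 0.0422), although limma-voom called it with an adjusted p of 0.0491.

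**Figure D1:**
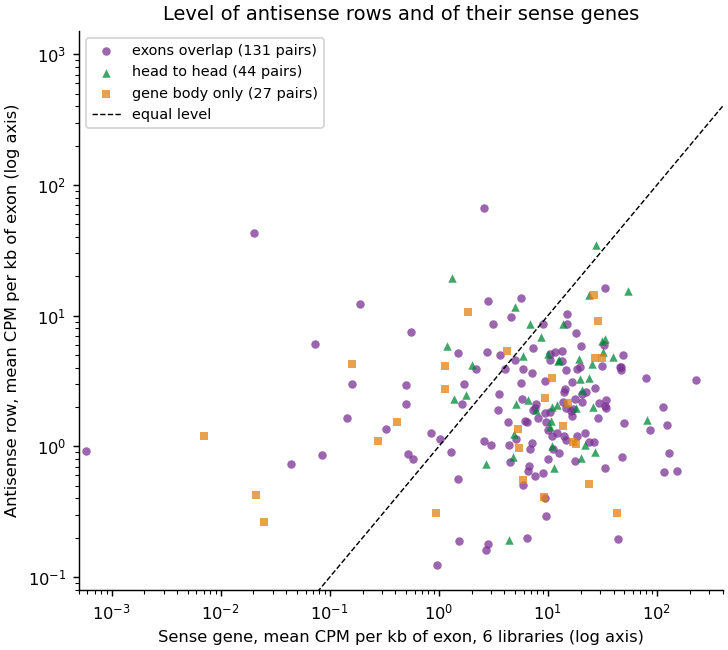
Mean level of each antisense row (y axis) against that of its sense gene (x axis), both in CPM per kb of exon over 6 libraries on log axes, with the layout of the pair as colour and shape. Of 206 pairs 202 are drawn, since 2 have no coordinates and in 2 the sense gene was at 0. Most points lie below the line of equal level, and 45 antisense rows lie above their sense gene.

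In several pairs the antisense transcript was expressed while the sense gene was close to 0. The sense gene had too few counts to be tested in 13 pairs. FGD5, which encodes an exchange factor for the GTPase CDC42, had 9 counts over the 6 libraries against 12191 for FGD5-AS1, or 0.0203 CPM per kb. TTN, the gene of the muscle protein titin, had 4 counts against 1056 for TTN-AS1. SNAI3, a zinc-finger factor of the Snail family, had 14 counts against 466 for SNAI3-AS1. The remaining untested sense genes were ALOX12, ASB16, CCDC144NL, CCDC183, CKMT2, CPB2, ENTPD3, LHX4, MMP24 and WEE2. TP73, which encodes a transcription factor, had 71 counts against 6618 for TP73-AS1.

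The layout was read from GENCODE v29 on GRCh38 for 204 of the 206 pairs. The exons of the antisense row overlapped exons of the sense gene in 133 pairs, the genes stood head to head without overlap in 44, and they overlapped only within the gene body in 27. HNRNPU-AS1 and LHX4-AS1 were not placed. The starts of the 2 genes lay within 1 kb of each other in 101 pairs. RefSeq now gives 33 of the antisense rows a symbol that ends in DT, for divergent transcript. Where exons overlapped, a median of 8.62% of the antisense exon bases lay in sense exons, with a maximum of 69.9%. The strand setting of the counting is not given in the sources used here, and without strand, reads of overlapping exons cannot be told apart. Among all listed pairs with over 50% of the antisense exon bases inside sense exons and a sense gene with 2000 counts or more, the antisense row had a median of 0.194% of the sense count and at most 5.61% (15 pairs). PAPPA-AS1, for example, had 15 counts against 18758 for PAPPA. With the same minimum for the sense gene, pairs with no shared exon base had a median of 0.185% and at most 109% (196 pairs). Between these classes, the median was 0.915% with above 0 to 25% of the antisense exon bases inside sense exons (163 pairs). It was 0.349% with above 25 to 50% (42 pairs). The median was thus higher in both middle classes than without overlap, but did not rise steadily with the overlap. These shares do not settle the strand setting.

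The comparison between knockdown and control asked which antisense transcripts changed and whether their sense genes changed with them. Of the 206 antisense rows, 40 changed (19.4%), of which 12 rose and 28 fell in knockdown, at an adjusted p under 0.05 in the edgeR quasi-likelihood test (adjusted by Benjamini-Hochberg over all tested symbols). Over all 13632 tested symbols 33.3% changed, 15.3% higher and 18.1% lower. All 206 antisense rows passed the filter on low counts. In the class with 100 to under 1000 counts, 29 of 172 antisense rows changed (16.9%), beside 22.6% of all tested symbols in that class, and with 1000 to under 10000 counts, 11 of 32 changed (34.4%), beside 38.9%. The difference between members and other symbols was not tested. The libraries of the groups did not overlap for 71 antisense rows, and for 44.3% of all tested symbols. The median log2 fold change was −0.06 for the antisense rows and 0.00 for all tested symbols. With scaling by library size alone, 37 antisense rows changed, 15 higher and 22 lower. DESeq2 called 17 antisense rows, 6 higher and 11 lower, all of them among the 40. Over all 13632 symbols, DESeq2 called 2877 and edgeR 4545.

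Of the 203 sense genes 190 were tested, and 72 changed (37.9%), 16 higher and 56 lower, with a median log2 fold change of −0.02 over the 190. Over all tested symbols 33.3% changed, 15.3% higher and 18.1% lower. In the class with 1000 to under 10000 counts, which holds the median count of the sense genes (3226), 38.9% of all tested symbols changed. For the sense genes, scaling by library size gave 25 higher and 50 lower. The changes of sense genes were small, with a median of 1.19-fold among those called, beside 1.38-fold for the called antisense rows. The median standard error of a log2 fold change was 0.175 for antisense rows and 0.0553 for sense genes, so a smaller change could pass the test in a sense gene.

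Among the antisense rows that were higher in knockdown, TMEM9B-AS1 and LOXL1-AS1 changed by over 2-fold. TMEM9B-AS1 overlaps the first part of TMEM9B, which encodes a lysosomal membrane protein, and had 3.14, 3.26 and 3.09 CPM in knockdown libraries against 1.64, 1.26 and 1.26 CPM in control libraries. All knockdown libraries of TMEM9B-AS1 lay above all control libraries, and its log2 fold change was 1.15 (edgeR adjusted p = 0.000789, SE 0.256), while TMEM9B was not called (log2 fold change 0.09, adjusted p = 0.293). SH3BP5-AS1 had 14.3, 13.5 and 13.2 CPM in knockdown libraries against 8.46, 7.20 and 8.69 CPM in control libraries, with no overlap (log2 fold change 0.75, edgeR adjusted p = 2.09e-05, SE 0.125). SH3BP5, which encodes an activator of the GTPase RAB11, did not pass (log2 fold change 0.17, adjusted p = 0.233). PSMG3-AS1, beside the gene of a proteasome assembly chaperone, had 23.2, 23.4 and 24.2 CPM in knockdown libraries against 17.0, 16 and 14.8 CPM in control libraries (log2 fold change 0.55, edgeR adjusted p = 2.52e-05). The groups of PSMG3-AS1 did not overlap either, and PSMG3 had a log2 fold change of −0.08 that did not pass.

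TMCC1-AS1 and UBA6-AS1 also rose without a called sense gene, and by less. TMCC1-AS1, head to head with the gene of an endoplasmic reticulum membrane protein, had 14.9, 12.2 and 10.1 CPM in knockdown libraries against 8.72, 10.5 and 6.87 CPM in control libraries. Its groups overlapped, and its rise (log2 fold change 0.49, edgeR adjusted p = 0.0107) no longer passed without knockdown replicate 1 (adjusted p = 0.11) or control replicate 3 (0.0624). UBA6-AS1, head to head with the gene of a ubiquitin-activating enzyme, averaged 28.0 ± 0.98 CPM in knockdown and 23.4 ± 2.38 CPM in control (SD, n = 3 each; log2 fold change 0.27, edgeR adjusted p = 0.0171). The UBA6-AS1 call did not hold without knockdown replicate 2 (adjusted p = 0.0633) and without control replicate 1 (0.135), and 29.3% of its exon bases lie under other genes of the opposite strand. DESeq2 did not call UBA6-AS1.

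**Figure D2:**
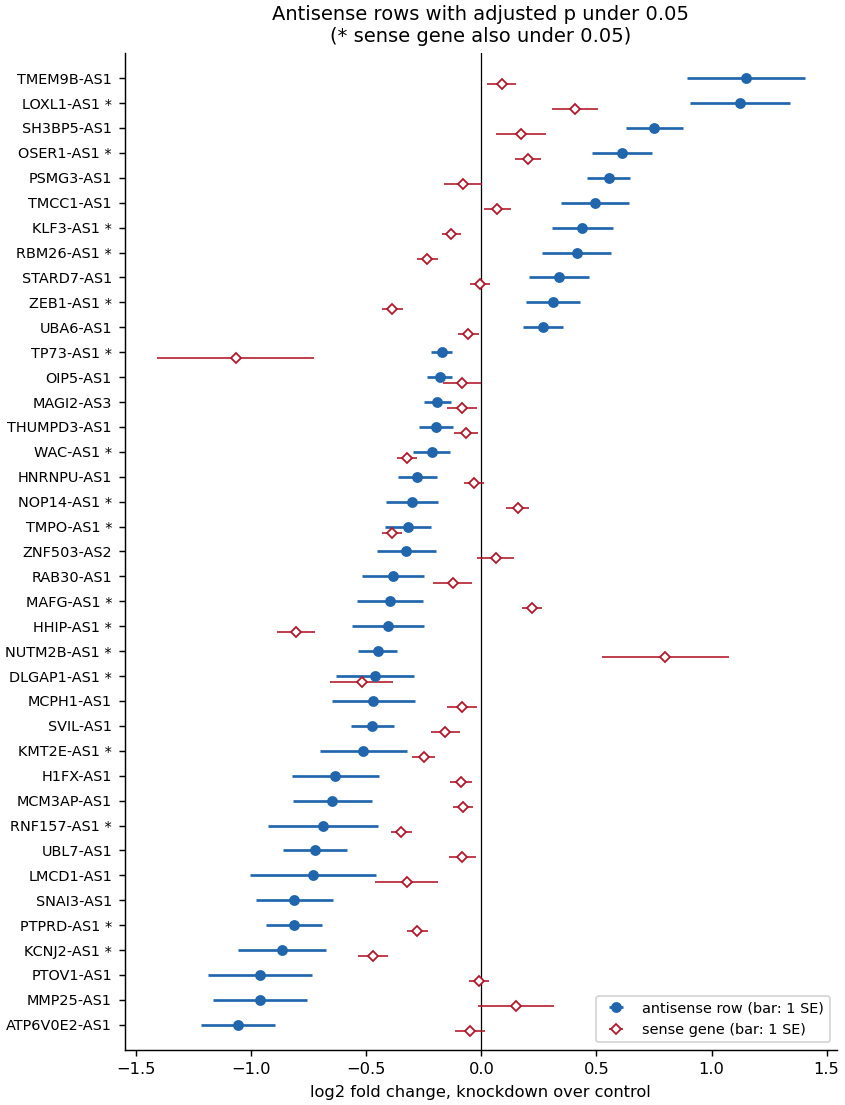
Log2 fold change (x axis, knockdown over control) of 39 of the 40 antisense rows with adjusted p under 0.05, in order of size, as filled circles, with the sense gene of each as an open diamond and bars of 1 standard error. A star marks the pairs in which the sense gene also passed the test, and SNAI3-AS1 has no diamond because SNAI3 was not tested. The 11 rows drawn that were higher lie at the top and the 28 that were lower below them, and most diamonds lie nearer to 0 than their circles.

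More antisense rows fell. ATP6V0E2-AS1 had 4.50, 3.72 and 5.25 CPM in knockdown libraries against 8.55, 10.6 and 9.25 CPM in control libraries, the largest fold among the antisense rows called lower (log2 fold change −1.06, edgeR adjusted p = 6.16e-06, SE 0.162). Its groups were far from overlapping, and ATP6V0E2, a subunit gene of the proton pump of acidic organelles, did not pass (log2 fold change −0.05, adjusted p = 0.59). MMP25-AS1 had 3.04, 2.56 and 2.67 CPM in knockdown libraries against 5.44, 4.34 and 6.58 CPM in control libraries (log2 fold change −0.96, edgeR adjusted p = 0.000461, SE 0.204). Its sense gene, which encodes a matrix metalloproteinase held at the cell surface, had a log2 fold change of 0.15 that did not pass. PTOV1-AS1 had 1.89, 2.10 and 1.95 CPM in knockdown libraries against 4.23, 3.54 and 3.64 CPM in control libraries (log2 fold change −0.96, edgeR adjusted p = 0.00136), while PTOV1 stood at −0.01. Every knockdown library lay below every control library for MMP25-AS1 and PTOV1-AS1, and 34.2% of the exon bases of PTOV1-AS1 lie under MED25 on the opposite strand.

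SNAI3-AS1 had 7.54, 6.63 and 4.22 CPM in knockdown libraries against 11.7, 11.4 and 8.55 CPM in control libraries (log2 fold change −0.81, edgeR adjusted p = 0.000312, SE 0.166). UBL7-AS1, head to head with UBL7 at 83 bases, had 5.86, 6.63 and 7.82 CPM in knockdown libraries against 11.1, 10.6 and 12.1 CPM in control libraries (log2 fold change −0.72, edgeR adjusted p = 0.000158, SE 0.14). The groups did not overlap in either, UBL7 did not pass the test, and 45.7% of the exon bases of UBL7-AS1 lie under another gene of the opposite strand. MCM3AP-AS1 averaged 4.55 ± 0.745 CPM in knockdown and 7.23 ± 0.92 CPM in control (SD, n = 3 each; log2 fold change −0.65, edgeR adjusted p = 0.00385), and MCM3AP, which encodes a factor of messenger RNA export, did not pass (log2 fold change −0.08). SVIL-AS1 averaged 16.3 ± 0.497 CPM in knockdown and 22.7 ± 1.30 CPM in control (log2 fold change −0.47, edgeR adjusted p = 0.000219). SVIL, which encodes the actin-binding protein supervillin, had a log2 fold change of −0.16 and an adjusted p of 0.0527, and passed without knockdown replicate 3 (adjusted p = 0.00399).

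TP73-AS1, OIP5-AS1 and MAGI2-AS3, all abundant, fell slightly. TP73-AS1 had 115, 116 and 107 CPM in knockdown libraries against 125, 130 and 126 CPM in control libraries (log2 fold change −0.17, edgeR adjusted p = 0.00401, SE 0.0457). OIP5-AS1, the conserved RNA also called Cyrano, known in mouse for driving the decay of a microRNA, had 66.0, 70.2 and 71.3 CPM in knockdown libraries against 76.1, 84.6 and 74.3 CPM in control libraries (log2 fold change −0.18, edgeR adjusted p = 0.0113). The groups did not overlap for TP73-AS1 and OIP5-AS1. The OIP5-AS1 call did not hold without knockdown replicate 1 (adjusted p = 0.0735), without control replicate 2 (0.122) and with DESeq2 (0.0715). MAGI2-AS3 averaged 56.1 ± 3.80 CPM in knockdown and 64.0 ± 3.57 CPM in control (SD, n = 3 each) with overlapping groups (log2 fold change −0.19, edgeR adjusted p = 0.0135). The MAGI2-AS3 call did not hold without knockdown replicate 1 (adjusted p = 0.0679), knockdown replicate 2 (0.0745) or control replicate 1 (0.0964), and with DESeq2 (0.0813). THAP9-AS1, at 57.9 ± 1.37 CPM in knockdown and 62.3 ± 1.34 CPM in control, did not pass (adjusted p = 0.12).

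Calls of a pair's 2 members were set side by side for the 193 pairs in which both were tested. Both changed in 17 pairs, the antisense row alone in 22, the sense gene alone in 57 and neither in 97. Of the 17 pairs, 9 had both members lower, 2 had both higher and 6 moved in opposite directions. How many such pairs unrelated calls of the 2 members would give was not computed. These counts, in the same and in opposite directions, are therefore a description and no result about the pairs. Across the 193 pairs, the 2 log2 fold changes had a Pearson correlation of 0.19 and a Spearman correlation of 0.19, and 104 pairs had the same sign. Both members of a pair were measured in the same libraries, and many antisense rows had few counts, so these weak correlations are given as a description.

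**Figure D3:**
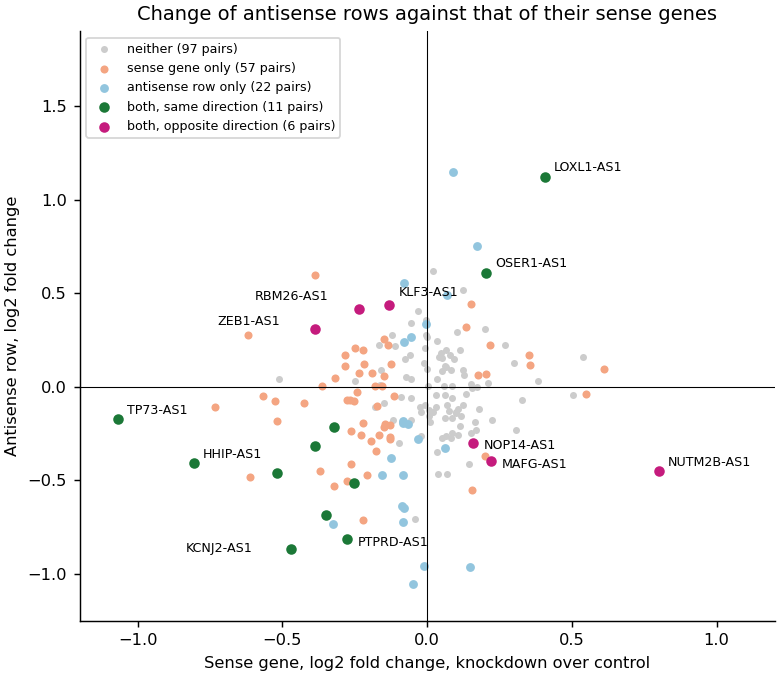
Log2 fold change (knockdown over control) of each antisense row (y axis) against that of its sense gene (x axis) for the 193 pairs with both tested, coloured by which member passed the test. The 11 pairs with both members called in the same direction lie in the lower left and upper right, and the 6 opposite pairs lie in the upper left and lower right.

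Both members rose in the LOXL1 and OSER1 pairs. LOXL1-AS1 had 4.40, 4.54 and 4.22 CPM in knockdown libraries against 1.99, 1.83 and 2.24 CPM in control libraries (log2 fold change 1.12, edgeR adjusted p = 0.000159, SE 0.217). LOXL1, which encodes an enzyme that cross-links elastin, had 18.0, 18.5 and 19.4 CPM in knockdown libraries against 14.4, 14.4 and 13.2 CPM in control libraries (log2 fold change 0.41, edgeR adjusted p = 0.00236). In neither LOXL1-AS1 nor LOXL1 did the groups overlap. OSER1-AS1 had 19.9, 19.9 and 13.6 CPM in knockdown libraries against 12.8, 11.3 and 10.2 CPM in control libraries (log2 fold change 0.61, edgeR adjusted p = 0.000514, SE 0.131). OSER1, a gene induced by oxidative stress, averaged 60.9 ± 1.58 CPM in knockdown and 53.0 ± 1.73 CPM in control (SD, n = 3 each; log2 fold change 0.20, edgeR adjusted p = 0.00549). Knockdown replicate 3 of OSER1-AS1 lay close to the highest control library, and the other 2 stood well above it.

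Among the antisense rows of the 9 pairs with both members lower, PTPRD-AS1 and KCNJ2-AS1 had the smallest adjusted p. KCNJ2-AS1 had 3.67, 3.14 and 3.50 CPM in knockdown libraries against 7.17, 4.68 and 6.87 CPM in control libraries (log2 fold change −0.87, edgeR adjusted p = 0.00075, SE 0.192). KCNJ2, the gene of an inward-rectifier potassium channel, had 33.6, 35.3 and 37.0 CPM in knockdown libraries against 49.5, 48.9 and 48.2 CPM in control libraries (log2 fold change −0.47, edgeR adjusted p = 9.28e-07). The groups of KCNJ2-AS1 and KCNJ2 did not overlap. In GENCODE v29, PTPRD-AS1 overlaps PTPRD within the gene body only, with no shared exon base. By the nearest starts listed in RefSeq, it starts 78627 bases upstream of PTPRD. PTPRD-AS1 had 8.17, 9.66 and 7.82 CPM in knockdown libraries against 14.5, 15.4 and 15.1 CPM in control libraries (log2 fold change −0.81, edgeR adjusted p = 4.23e-06, SE 0.122). PTPRD, which encodes a receptor phosphatase of synaptic adhesion, had 256, 266 and 288 CPM in knockdown libraries against 317, 324 and 343 CPM in control libraries (log2 fold change −0.28, edgeR adjusted p = 2.57e-05). The log2 ratio of PTPRD-AS1 to PTPRD counts was −4.98 ± 0.21 in knockdown and −4.44 ± 0.054 in control (SD, n = 3 each). The ratios did not overlap, and the exact two-sided permutation test gave 0.1, the smallest p that 3 against 3 libraries allow.

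In the TMPO pair, in which 21.2% of the antisense exon bases lie in sense exons, both members also fell. TMPO-AS1 averaged 14.9 ± 0.522 CPM in knockdown and 18.6 ± 0.364 CPM in control (SD, n = 3 each; log2 fold change −0.32, edgeR adjusted p = 0.0135). TMPO, which encodes lamina-associated proteins of the nucleus, averaged 367 ± 9 CPM in knockdown and 480 ± 9.28 CPM in control (log2 fold change −0.39, edgeR adjusted p = 2.12e-08). The TMPO-AS1 call did not hold without knockdown replicate 1 (adjusted p = 0.0571) and with DESeq2 (0.0791). TP73 had 0.733, 1.05 and 0.720 CPM in knockdown libraries against 1.99, 1.37 and 1.82 CPM in control libraries, or 23 counts against 48, with no overlap (log2 fold change −1.07, edgeR adjusted p = 0.0157). The TP73 call did not hold without knockdown replicate 1 (adjusted p = 0.0632), knockdown replicate 3 (0.0538) or control replicate 1 (0.0942).

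RNF157-AS1 and DLGAP1-AS1 fell beside their sense genes, RNF157, which encodes a ubiquitin ligase, and DLGAP1, which encodes a scaffold protein of the synapse. RNF157-AS1 averaged 2.11 ± 0.532 CPM in knockdown and 3.39 ± 0.314 CPM in control (SD, n = 3 each; edgeR adjusted p = 0.0251), and RNF157 had a log2 fold change of −0.35 (adjusted p = 5.36e-07). DLGAP1-AS1 averaged 4.92 ± 0.195 CPM in knockdown and 6.63 ± 1.26 CPM in control (edgeR adjusted p = 0.035), and DLGAP1 had a log2 fold change of −0.52 (adjusted p = 0.00405). Neither antisense call held with DESeq2, where the adjusted p was 0.138 for RNF157-AS1 and 0.169 for DLGAP1-AS1. RNF157-AS1 also failed without knockdown replicate 2 (adjusted p = 0.0915), knockdown replicate 3 (0.105) or control replicate 1 (0.116). DLGAP1-AS1 passed without control replicate 3 and did not pass without any 1 of the other 5 libraries (adjusted p between 0.0608 and 0.196). The other 3 pairs with both members lower were KMT2E, WAC and HHIP, named after their values were seen. DESeq2 called both members in none of these 3 pairs, and none of their antisense rows kept its call in all 14 other fits of the counts. HHIP, which encodes an inhibitor of Hedgehog signalling, had 19.4, 18.2 and 19.9 CPM in knockdown libraries against 33.0, 35.9 and 31.7 CPM in control libraries (log2 fold change −0.81, edgeR adjusted p = 6.08e-09), and HHIP-AS1 had a log2 fold change of −0.41 (adjusted p = 0.0439).

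In 6 pairs the members passed the test in opposite directions. The antisense row was higher and the sense gene lower in knockdown for ZEB1, RBM26 and KLF3, and the antisense row was lower and the sense gene higher for MAFG, NOP14 and NUTM2B. The fold changes were small except for NUTM2B. DESeq2 called both members in none of the 6 pairs, and called both in 4 other pairs. Without 1 library, between 1 and 5 opposite pairs had both members called. The pair's log2 ratio of antisense to sense counts, in which library scaling cancels, did not overlap between the groups in any of the 6 pairs. The exact two-sided permutation test gave p = 0.1 in each, the smallest possible. In these pairs neither member overlapped between the groups and the directions were opposite, so the ratio could not overlap. It is therefore no further test of these pairs.

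**Figure D4:**
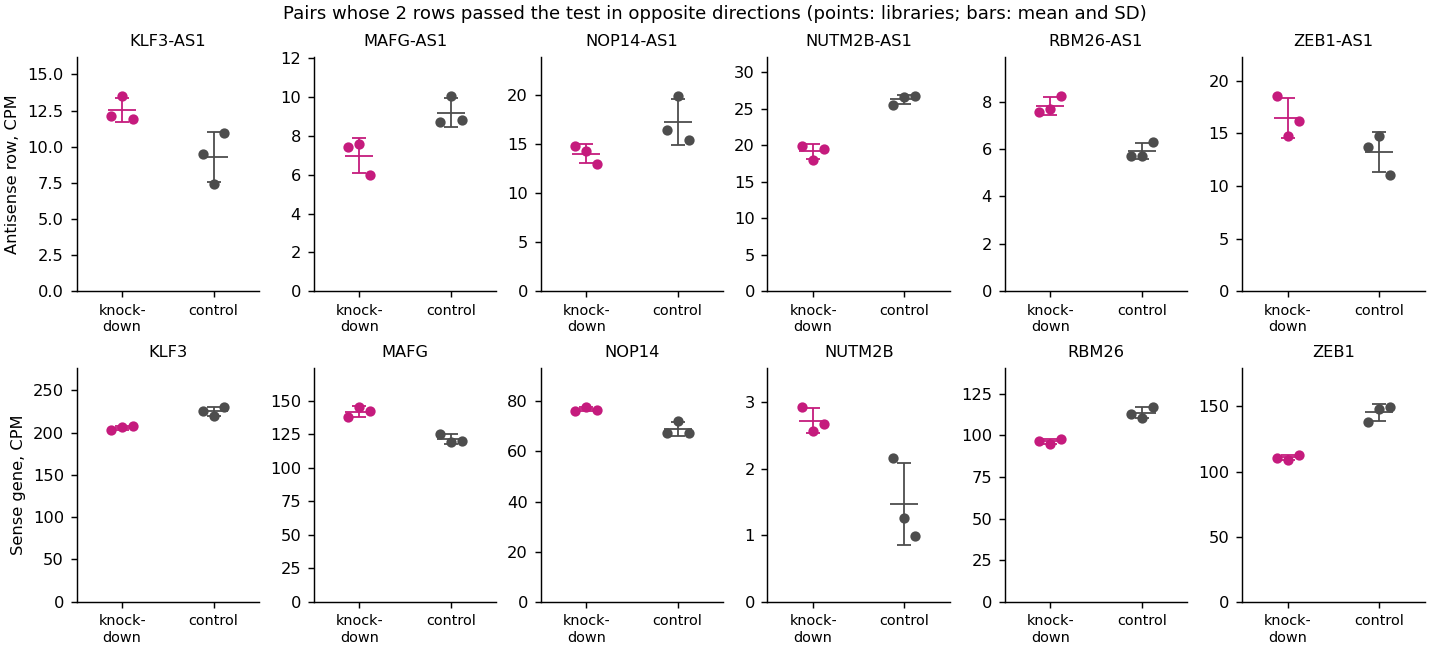
CPM per library of the antisense row (top) and of the sense gene (bottom) in the 6 pairs whose members passed the test in opposite directions, with knockdown left of control, points for libraries and bars for the mean and SD. All axes start at 0, and in each panel the points of the groups do not overlap.

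ZEB1-AS1 had 18.5, 14.8 and 16.1 CPM in knockdown libraries against 13.7, 14.7 and 11.1 CPM in control libraries (log2 fold change 0.31, edgeR adjusted p = 0.0395, SE 0.117). ZEB1, a transcriptional repressor known for silencing epithelial genes, had 111, 109 and 113 CPM in knockdown libraries against 138, 148 and 150 CPM in control libraries (log2 fold change −0.39, edgeR adjusted p = 6.91e-08, SE 0.0454). The groups of ZEB1 were clearly separate, while those of ZEB1-AS1 almost touched. The log2 ratio was −2.75 ± 0.16 in knockdown and −3.47 ± 0.25 in control (SD, n = 3 each). The ZEB1-AS1 call was lost with DESeq2 (adjusted p = 0.125) and without knockdown replicate 1 (0.218), control replicate 1 (0.062) or control replicate 3 (0.155). In GRCh38, ZEB1-AS1 spans 31206278 to 31320447 on the minus strand of chromosome 10 and ZEB1 spans 31318495 to 31529814 on the plus strand, and 9.55% of the antisense exon bases lie in exons of ZEB1.

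RBM26-AS1 had 7.54, 7.68 and 8.23 CPM in knockdown libraries against 5.70, 5.71 and 6.30 CPM in control libraries (log2 fold change 0.41, edgeR adjusted p = 0.0318, SE 0.149). RBM26, which encodes an RNA-binding protein, had 96.5, 95.0 and 97.6 CPM in knockdown libraries against 113, 111 and 117 CPM in control libraries (log2 fold change −0.24, edgeR adjusted p = 0.000148). Both had tight groups that did not overlap. The RBM26-AS1 call was lost with DESeq2 (adjusted p = 0.154) and without knockdown replicate 1 (0.0541), knockdown replicate 2 (0.0614), knockdown replicate 3 (0.0875), control replicate 1 (0.105) or control replicate 2 (0.0766). RBM26-AS1 spans 79406309 to 79424328 on the plus strand of chromosome 13, and the start of RBM26, which runs on the minus strand, lies 168 bases inside it in GENCODE v29.

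KLF3-AS1 had 12.2, 13.5 and 11.9 CPM in knockdown libraries against 9.50, 7.43 and 10.9 CPM in control libraries (log2 fold change 0.44, edgeR adjusted p = 0.0111, SE 0.133). KLF3, which encodes a zinc-finger repressor, averaged 206 ± 2.56 CPM in knockdown and 225 ± 5.62 CPM in control (SD, n = 3 each; log2 fold change −0.13, edgeR adjusted p = 0.018). The difference of KLF3 was small beside its level, but its knockdown libraries all lay below its control libraries. The KLF3-AS1 call was lost with DESeq2 (adjusted p = 0.0559) and without knockdown replicate 2 (0.0545) or control replicate 2 (0.088). The KLF3 call did not hold without knockdown replicate 1 (adjusted p = 0.0847), knockdown replicate 2 (0.0573) or control replicate 3 (0.0516). KLF3-AS1 spans 38612701 to 38664883 on the minus strand of chromosome 4, and its start lies 687 bases inside KLF3.

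MAFG-AS1, which RefSeq now names MILIP, had 7.43, 7.57 and 5.97 CPM in knockdown libraries against 8.72, 10.1 and 8.83 CPM in control libraries (log2 fold change −0.40, edgeR adjusted p = 0.0331, SE 0.144). MAFG, which encodes a small Maf protein that pairs with NRF2-type factors on DNA, had 138, 146 and 142 CPM in knockdown libraries against 126, 119 and 120 CPM in control libraries (log2 fold change 0.22, edgeR adjusted p = 0.000268, SE 0.0445). The groups did not overlap for MAFG-AS1 or MAFG. The MAFG-AS1 call was lost with DESeq2 (adjusted p = 0.142) and without knockdown replicate 3 (0.164) or control replicate 2 (0.132). The genes share no exon base: MAFG-AS1 spans 81927829 to 81930753 on the plus strand of chromosome 17 and MAFG starts 115 bases away on the minus strand, in GENCODE v29.

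NOP14-AS1 had 14.8, 14.3 and 13.0 CPM in knockdown libraries against 16.4, 19.9 and 15.4 CPM in control libraries (log2 fold change −0.30, edgeR adjusted p = 0.0365, SE 0.112). NOP14, which encodes a nucleolar protein needed for the small ribosomal subunit, had 76.1, 77.9 and 76.6 CPM in knockdown libraries against 67.2, 72.2 and 67.2 CPM in control libraries (log2 fold change 0.16, edgeR adjusted p = 0.0163, SE 0.0508). The groups of NOP14-AS1 came close to each other without overlap. The NOP14-AS1 call was lost with DESeq2 (adjusted p = 0.135), with scaling by library size (0.0554), and without knockdown replicate 2 (0.063), knockdown replicate 3 (0.131) or control replicate 2 (0.248). The NOP14 call was lost with DESeq2 (adjusted p = 0.096) and without knockdown replicate 2 (0.0629) or control replicate 1 (0.0805).

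NUTM2B-AS1 had 19.9, 18.0 and 19.5 CPM in knockdown libraries against 25.6, 26.6 and 26.8 CPM in control libraries (log2 fold change −0.45, edgeR adjusted p = 0.000146, SE 0.0867). NUTM2B had 2.93, 2.56 and 2.67 CPM in knockdown libraries against 2.16, 1.26 and 0.981 CPM in control libraries, or 76 counts against 43 (log2 fold change 0.80, edgeR adjusted p = 0.0259, SE 0.278). NUTM2B-AS1 was well separated between groups, while NUTM2B rests on few counts and belongs to a family of near-identical genes, so its value is uncertain. The NUTM2B call was lost with DESeq2 (adjusted p = 0.113) and without knockdown replicate 1 (0.0785), control replicate 2 (0.102) or control replicate 3 (0.106). The log2 ratio of antisense to sense counts was 2.79 ± 0.053 in knockdown and 4.19 ± 0.58 in control (SD, n = 3 each).

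The ratio of antisense to sense counts was also compared in all pairs. It did not overlap between the groups in 67 of 193 pairs, 34 higher and 33 lower in knockdown. Each of these has the exact permutation p of 0.1, the smallest possible, which is not under 0.05. Lack of overlap was common, since the CPM of 44.3% of all tested symbols did not overlap either. Ratios of other gene pairs were not computed, so the 67 are given as a description. In the MYLK pair it was the sense gene that passed. MYLK, which encodes myosin light chain kinase, had 45.1, 51.3 and 48.0 CPM in knockdown libraries against 76.0, 71.2 and 74.3 CPM in control libraries (log2 fold change −0.62, edgeR adjusted p = 5.41e-10, SE 0.0573), while MYLK-AS1 did not pass (log2 fold change 0.28, adjusted p = 0.283). ZSWIM8, which encodes a ubiquitin ligase adaptor that acts in microRNA decay, averaged 116 ± 8.41 CPM in knockdown and 151 ± 6.32 CPM in control (log2 fold change −0.39, edgeR adjusted p = 3.82e-07). ZSWIM8-AS1 had a log2 fold change of 0.60 with overlapping groups and did not pass (adjusted p = 0.0817), except without knockdown replicate 3 (0.0325), and 98.0% of its exon bases lie under another gene of the same strand. NAPA, which encodes an adaptor of membrane fusion, was slightly higher in knockdown (log2 fold change 0.15, edgeR adjusted p = 0.0127), and NAPA-AS1 did not pass (log2 fold change −0.55, adjusted p = 0.125). The NAPA call did not hold without control replicate 1 (adjusted p = 0.0732) and with DESeq2 (0.0841).

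**Figure D5:**
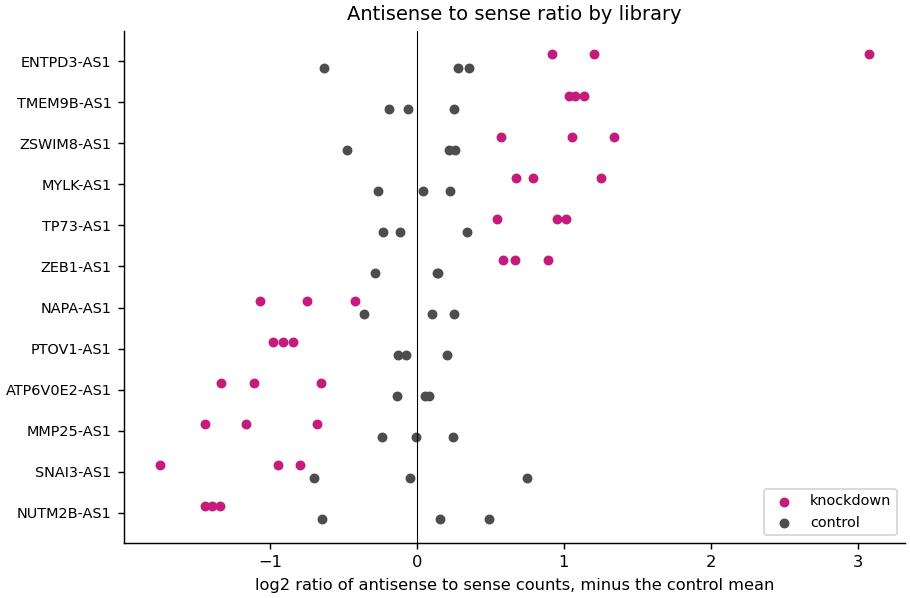
Log2 ratio of antisense to sense counts in each library minus the mean of the control libraries (x axis) for the 6 pairs with the most positive and the 6 with the most negative difference among pairs whose groups do not overlap. The pairs were picked for this difference, and the ratios of the ENTPD3 and SNAI3 pairs rest on 9 and 14 counts of the sense gene over 6 libraries.

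LRRC75A and TRAF3IP2 changed beside abundant antisense RNAs that did not pass the test. LRRC75A had 12.2, 10.9 and 11.2 CPM in knockdown libraries against 8.20, 7.20 and 7.99 CPM in control libraries (log2 fold change 0.55, edgeR adjusted p = 0.00146, SE 0.13), while LRRC75A-AS1 had a log2 fold change of −0.04 (adjusted p = 0.535). TRAF3IP2, an adaptor of interleukin-17 receptors, was the single sense gene on the list of interferon-stimulated and immune genes. It had 10.3, 9.78 and 10.3 CPM in knockdown libraries against 16, 13.8 and 13.4 CPM in control libraries (log2 fold change −0.53, edgeR adjusted p = 0.000812, SE 0.118), with no overlap. TRAF3IP2-AS1 averaged 50.1 ± 4.13 CPM in knockdown and 52.3 ± 4.14 CPM in control (SD, n = 3 each) and did not pass (adjusted p = 0.417).

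The sense genes were also read by function, and the counts in each list stand beside 15.3% of all tested symbols called higher and 18.1% called lower. Of 20 pairs whose sense gene is a transcription factor of development, 2 antisense rows rose, 1 fell and 17 did not pass, and of 19 tested sense genes 6 fell and none rose, with median log2 fold changes of 0.00 and 0.04. SOX9, a factor of neural stem cells, averaged 149 ± 8.68 CPM in knockdown and 187 ± 4.35 CPM in control (log2 fold change −0.32, edgeR adjusted p = 2.21e-06), and SOX9-AS1 did not pass (log2 fold change −0.53, adjusted p = 0.0748). SOX21, which promotes neurogenesis in chick, averaged 61.8 ± 9.43 CPM in knockdown and 70.4 ± 1.19 CPM in control (log2 fold change −0.19, edgeR adjusted p = 0.0354), and SOX21-AS1, 317 bases away, had 49.1 ± 3.71 CPM in knockdown and 46.3 ± 2.24 CPM in control (adjusted p = 0.403). Of 14 pairs with a chromatin or RNA regulator, 1 antisense row rose and 3 fell, and 7 sense genes fell, with a median of −0.15. DICER1, the enzyme that makes mature microRNAs, averaged 296 ± 8.60 CPM in knockdown and 361 ± 7.22 CPM in control (log2 fold change −0.28, edgeR adjusted p = 4.9e-06), and DICER1-AS1 did not pass (log2 fold change 0.11). With DESeq2, 4 of the transcription factor genes and 7 of the chromatin and RNA regulator genes were lower, and 0 antisense rows of either list were called in either direction. With scaling by library size or by the upper quartile, 1 sense gene of each of these lists was called higher. SOX9, SOX21 and DICER1 were named after their values were seen.

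Of 11 pairs with a gene of signalling, adhesion or axon guidance, 2 antisense rows fell and 9 did not pass, and 6 of 10 sense genes fell, with a median of −0.23. Of 7 pairs with a gene of cell cycle, growth control or stress, 2 antisense rows fell, and TP73 was the only sense gene that changed, with a median of 0.01. With DESeq2, 1 antisense row and 5 sense genes of the signalling list were lower. On the cell cycle list DESeq2 called 2 antisense rows lower and 0 sense genes, so the TP73 call was not made there. Scaling by library size called 1 antisense row of the signalling list higher. Of the 153 antisense rows whose sense gene is on no list, 9 rose and 20 fell (19.0%), and of 139 tested sense genes 16 rose and 35 fell (36.7%). By layout, 4 of 44 head-to-head antisense rows rose and 3 fell, 8 of 133 with overlapping exons rose and 20 fell, and none of 27 within the gene body rose and 4 fell. The share called was 15.9% head to head, 21.1% with overlapping exons and 14.8% within the gene body, and the difference between layouts was not tested. Among other non-coding rows with 100 or more counts, 4 of 87 tested LINC rows rose and 13 fell (19.5%), beside 19.4% of the antisense rows.

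INTS6-AS1 and DDX11-AS1 had 100 counts and CEP83-AS1 had 102, and none of these passed the test. PKNOX2-AS1 had 98 counts, and MANEA-AS1 and ARRDC3-AS1 had 99, and these are not members. Across the 206 rows, 16 kept their call in all 14 other fits of the counts, among them LOXL1-AS1, TMEM9B-AS1, SH3BP5-AS1, PSMG3-AS1, OSER1-AS1, PTPRD-AS1, ATP6V0E2-AS1, NUTM2B-AS1 and KCNJ2-AS1.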

How the data were processed

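RNA of 6 AF22 samples, 3 knockdown and 3 control, was grouped by the sample titles. Per the submitters' processing notes, Trim Galore 0.6.6, STAR 2.7.10a and bedtools were used with the build hg38. The library kit keeps strand, per the labels' protocols, while the program that counted reads, its strand setting and its annotation have no mention in these sources. For every sample the authors deposited raw read counts per gene symbol.

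In edgeR 4.0.16 (R 4.3.3), filterByExpr kept 13632 symbols, which were scaled by TMM and tested together with glmQLFTest, without covariates, and Benjamini-Hochberg adjustment (threshold 0.05). CPM are counts relative to the TMM-scaled library, and precision is limited by the counts: 3 counts in a library correspond to 0.259 to 0.42 CPM. Standard errors were obtained as the log2 fold change over the square root of its F. Ratios of antisense to sense counts had 0.5 counts added and were compared by the exact permutation test over libraries. Coordinates and exons come from GENCODE v29, by symbol for 176 pairs and by RefSeq synonym for 28, and promoter windows from RefSeq. The main edgeR fit was tested on simulated data with known changes, and the other fits were not. Replicates of a group differed by more than sampling noise (chi-square of 1.248 to 2.055 per degree of freedom), so each counted once.

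The members, lists and tests were chosen with earlier results of these data known. Named with values are the 10 antisense rows with the smallest p in each direction, the pairs with both members called in opposite directions, 8 pairs called in the same direction, the 6 rows with the highest level, the rows around the count minimum, the 6 largest rises and the 6 largest falls of the ratio, and the immune list, beside genes said to be named after their values were seen. One of these rows and some single cell type markers are not reported here. Alternatives were other scalings and filters, DESeq2 1.42.0, voom of limma 3.58.1, a replicate block, leaving out each library, other count minimums (50 and 200), an adjusted p under 0.01, and pairs with no shared exon base. Figures used Python 3.11.15 and Matplotlib 3.10.9.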

Additional observations from a re-analysis of the deposited data

How the results depend on the processing

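Antisense rows called numbered 40 and fell to 17 with DESeq2, to 17 at an adjusted p under 0.01 and to 11 among pairs with no shared exon base, which are fewer pairs. Over all symbols, calls also fell with DESeq2, from 4545 to 2877. Leaving out 1 library gave 26 to 33 antisense rows, 56 to 71 sense genes (72 in all) and 9 to 12 pairs with both called (17 in all). The lowest counts, 26 rows and 9 pairs, came without knockdown replicate 2 and without knockdown replicate 1. The sense genes called were 29 among pairs with no shared exon base. Pairs with both called were 4 with DESeq2, 4 at an adjusted p under 0.01, with 0 of these in opposite directions in either, and 5 among pairs with no shared exon base. The median log2 fold change of sense genes, −0.015, was 0.005 with scaling by library size and −0.031 to −0.006 without 1 library. The median difference between antisense row and sense gene, −0.053, was −0.134 among pairs with no shared exon base and −0.073 to −0.007 without 1 library, and the median of the antisense rows, −0.060, was −0.069 to −0.038. The cause of these shifts was not tested.

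With the replicate number as a block, 50 antisense rows, 83 sense genes and 21 pairs were called. Whether equal numbers pair the samples was not settled. Correlations of deviations were 0.0949, 0.0148 and 0.0930 for equal numbers and between −0.1244 and 0.0464 for unequal numbers. Knockdown replicates 1 and 3 correlated best with the control of the same number, and knockdown replicate 2 with control replicate 3 (0.0248). Over the named genes, 1027 values kept their direction and their side of the threshold among the alternatives run, 64 lost a call and 6 gained one. In 8 values of 5 sense genes, none of them called in either fit, the sign turned. The log2 fold change of PTOV1 (−0.010) was 0.012 with scaling by library size and 0.001 with upper-quartile scaling. Without 1 library it was −0.037 to 0.028 for PTOV1, −0.096 to 0.025 for ATP6V0E2 (−0.050 in all), −0.099 to 0.006 for CEP83 (−0.042), −0.031 to 0.056 for INTS6 (0.019) and −0.058 to 0.006 for THAP9 (−0.024). At counts near 100 no call was made among the 3 members at the minimum, and the part of depth in this was not tested.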
